A study of Rattus norvegicus with 12 samples.

Results

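The effect of rising TCDCA concentration was examined as a dose trend over the 12 RNA-seq libraries of fibroblast-like synoviocytes (FLS), from cells without TCDCA to cells at 10 µM. Each library was given a dose rank, which was 0 for FCA, 1 for AT01, 2 for AT1 and 3 for AT10, and the trend of a gene was the slope of log2(FPKM + 1) on that rank. FPKM is a fragment count scaled by the length of the transcript and the mapped fragments of the library, and the 1 added before the log makes the slopes of low genes smaller than their true log2 change. Of the 22442 gene records of the series, 11611 had an average level of 1 FPKM or more and were tested, and all 12 of 12 libraries entered. The FCA group was cultured in DMEM alone, and the AT01, AT1 and AT10 cells were kept for 12 h with TCDCA, at 0.1 µM (1e-07 M), 1 µM (1e-06 M) and 10 µM (1e-05 M), with 3 libraries in each of the 4 groups. All 4 groups shared the disease model: the cells came from the synovium of male Sprague Dawley rats with adjuvant arthritis induced by complete Freund's adjuvant, and were used at the third passage, so no group held cells of healthy animals. The age of the rats is not given in the sources used here. The study calls the replicate numbers repeats, and no source used here says whether those came from separate animals or cultures, so the p-values measure only the spread between these samples, which may be technical.

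TCDCA (taurochenodeoxycholic acid) is a bile acid conjugated with taurine. Bile acids act as signals through the membrane receptor TGR5 (gene Gpbar1), which raises cyclic AMP, and through nuclear receptors, and the study asked about the glucocorticoid receptor (gene Nr3c1). FLS are the mesenchymal cells of the synovial lining, which make collagen, lubricin, cytokines and matrix-degrading enzymes, and which multiply and contract the tissue in an arthritic joint.

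The labelled cell type was checked against its markers. All 10 of the 12 FLS markers that had a record exceeded 1 FPKM in at least 1 library, with a summed level of 3736 to 5533 FPKM. None of the 5 endothelial markers with a record (at most 0.12 FPKM) and none of the 3 T cell markers with a record (at most 0.05 FPKM) did so. Other types had markers above 1 FPKM in at least 1 library. These were all 5 smooth muscle and myofibroblast markers with a record, 4 of 5 adipocyte markers (at most 39.1 FPKM) and 3 of 5 chondrocyte markers (at most 5.79 FPKM). Of 4 macrophage markers with a record, Cd68 and Cd14 exceeded 1 FPKM, and the sum of the 4 lay between 6.48 and 21.9 FPKM in FCA, 6.09 and 20.2 in AT01, 5.71 and 17.6 in AT1, and 18.4 and 21.4 in AT10. Cd14, which ranged from 3.6 to 18.8 FPKM, held most of that sum in every library. The libraries held between 17736 and 18505 records above 0, and neither that number (exact permutation p = 0.695 for its slope on dose rank) nor the sum of FPKM (exact p = 0.0889) passed the test. The deposited table holds no read counts and the library totals that the study gives were not used here, so no counting interval is given. In bulk RNA, fewer cells of a type and less RNA per cell cannot be told apart.

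No record passed the test for a dose trend after adjustment. In the exact permutation test of the slope, which compares the observed slope with those of all 369600 assignments of the libraries to the groups, the smallest Benjamini-Hochberg adjusted p over the 11611 records was 0.157, and limma gave 0.242. Without adjustment, 1310 records (11.3%) had an exact p under 0.05, and limma gave 1304 (11.2%). Of these, 758 had a slope above 0 (6.53% of the records tested) and 552 a slope below 0 (4.75%). Below, a gene is said to have risen or fallen with dose only where its unadjusted exact p was under 0.05. Each such call is one of 11611 tests and failed the adjustment. Of the 146 members of the gene lists used here that passed at that level, 46 did so whichever library was left out, and 100 lost the call without at least 1 library. Where a list member described below lost it, the largest p is given with the library whose removal gave it.

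The changes were small. The median slope was 0.11 per dose step (log2) among the rising records and -0.084 among the falling ones, against -0.0023 over all records tested. A slope beyond 0.333 per step, which is a 2-fold difference from rank 0 to rank 3, was found in 24 rising and 32 falling records. Rising records were the lower expressed, with a median of 5.72 FPKM and 229 of 758 (30.2%) at 10 FPKM or more, and falling records had a median of 9.2 FPKM and 264 of 552 (47.8%) at that level, beside 37.6% of all records.

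**Figure D1:**
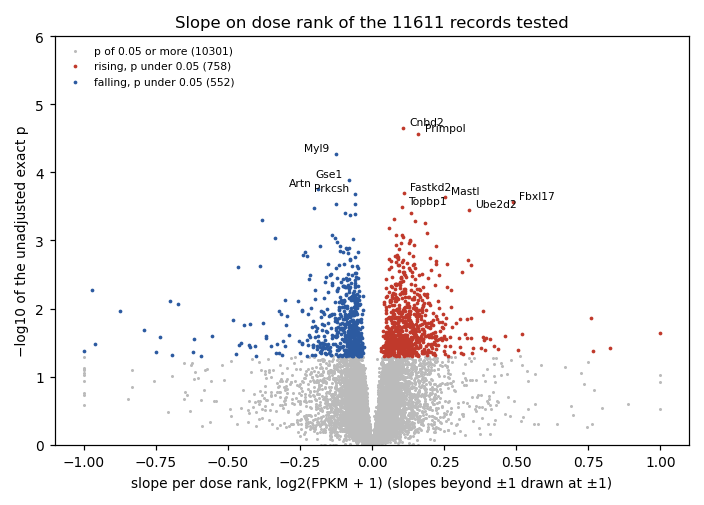
Slope of log2(FPKM + 1) per dose step (horizontal axis) against the -log10 of the two-sided exact permutation p (vertical axis), 1 point for each of the 11611 records, with the 758 rising and 552 falling records in colour. Most slopes lie near 0, and the highest points, among them Cnbd2, Primpol and Myl9, are records of modest slope whose libraries follow the dose order closely.

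Of the monotone orders of the 4 group means, the rising one was the most frequent. Among the 24 possible orders, FCA < AT01 < AT1 < AT10 was held by the most records, 888 (7.65%), and the reverse order by 568 (4.89%), which placed it seventh. All 3 AT10 libraries lay above all 3 FCA libraries in 1241 records (10.7%) and below them in 1066 (9.18%). Among the 9 TCDCA libraries alone, 343 records rose (2.95%) and 422 fell (3.63%) from 0.1 to 10 µM by the exact test. For those libraries limma gave an unadjusted p under 0.05 for 725 records (6.24%), and its smallest adjusted p was 0.678. Of the 758 records that rose over the 4 groups, 748 had a slope above 0 also over the 3 doses, and 128 reached an exact p under 0.05 there. Those 2 fits share 9 of the 12 libraries, so agreement in sign is partly built in. Over all 11611 records tested, 8248 had the same sign in both fits. Of the 552 falling records, 540 kept a slope below 0 and 110 reached that p.

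The rising records of smallest p were led by Cnbd2, Primpol and Fastkd2. Cnbd2 (record MSTRG.11877), a protein with cyclic nucleotide-binding domains, was at 12.96, 11.1 and 12.8 FPKM in the FCA libraries, 13.1, 14.3 and 15.1 in AT01, 15.02, 15.1 and 15.3 in AT1 and 15.3, 15.4 and 16.2 in AT10. All FCA libraries lay below all AT01 libraries, and the 3 AT10 libraries were above the other 9. The trend of Cnbd2 had a slope of 0.11 ± 0.024 (SE), r = 0.85 with an exact permutation p = 2.16e-05 and rho = 0.93 with an exact p = 7.03e-05, and an adjusted p = 0.157. Primpol (MSTRG.7001), a primase and polymerase that restarts DNA synthesis at stalled replication forks, was at 1.37, 1.32 and 1.42 FPKM in the FCA libraries, 1.61, 1.81 and 1.68 in AT01, 2.29, 2.04 and 2.17 in AT1 and 2.17, 2.22 and 2.40 in AT10. FCA, AT01 and AT1 did not overlap one another, and AT10 overlapped AT1 alone. Primpol had a slope of 0.16 ± 0.024 (SE), r = 0.95 with an exact permutation p = 2.71e-05 and rho = 0.92 with an exact p = 9.2e-05, and an adjusted p = 0.157. Fastkd2 (MSTRG.18082), a mitochondrial RNA-binding protein needed for assembly of the mitochondrial ribosome, was at 4.44, 4.25 and 4.30 FPKM in the FCA libraries, 4.25, 4.99 and 4.53 in AT01, 5.59, 5.25 and 4.98 in AT1 and 5.44, 5.83 and 5.55 in AT10. The AT10 libraries lay above all FCA and AT01 libraries, and FCA and AT01 overlapped. Fastkd2 had a slope of 0.11 ± 0.021 (SE), r = 0.91 with an exact permutation p = 0.0002 and rho = 0.85 with an exact p = 0.000871, and an adjusted p = 0.276.

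Topbp1 and Mastl act, like Primpol, in the replication and division of chromosomes. Topbp1 (MSTRG.17352), the scaffold that activates the checkpoint kinase ATR, was at 5.45, 5.17 and 5.69 FPKM in the FCA libraries, 6.44, 6.38 and 5.71 in AT01, 6.34, 6.39 and 7.26 in AT1 and 6.72, 7.04 and 7.27 in AT10. The 3 FCA libraries were below all 9 TCDCA libraries, by a narrow margin against AT01 replicate 3. Topbp1 had a slope of 0.10 ± 0.022 (SE), r = 0.87 with an exact permutation p = 0.000319 and rho = 0.86 with an exact p = 0.000779, and an adjusted p = 0.276. Mastl (MSTRG.7860), the Greatwall kinase that keeps a phosphatase off during mitosis, was at 1.59, 2.42 and 2.19 FPKM in the FCA libraries, 2.18, 2.56 and 2.43 in AT01, 3.34, 2.37 and 3.02 in AT1 and 4.30, 3.35 and 5.18 in AT10. All AT10 libraries exceeded the other 9, while FCA, AT01 and AT1 overlapped. Mastl had a slope of 0.25 ± 0.048 (SE), r = 0.85 with an exact permutation p = 0.000233 and rho = 0.84 with an exact p = 0.00135, and an adjusted p = 0.276. A second Mastl record rose as well, with a slope of 0.15 and an exact permutation p = 0.00575.

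Of the other rising records of smallest p, 2 code for parts of the ubiquitin system and 1 for a ribosome assembly factor. Fbxl17 (MSTRG.18313), the substrate-binding subunit of a ubiquitin ligase, was at 4.49, 1.59 and 2.23 FPKM in the FCA libraries, 6.15, 5.33 and 3.47 in AT01, 8.16, 4.97 and 7.86 in AT1 and 9.09, 8.99 and 9.02 in AT10. Its AT10 libraries lay close together and above the other 9. Fbxl17 had a slope of 0.49 ± 0.084 (SE), r = 0.86 with an exact permutation p = 0.000271 and rho = 0.91 with an exact p = 0.000189, and an adjusted p = 0.276, the largest slope among these 8 records. Ube2d2 (MSTRG.8045), a ubiquitin-conjugating enzyme, was at 14.6, 11.5 and 13.9 FPKM in the FCA libraries, 12.98, 16.4 and 15.4 in AT01, 15.8, 18.6 and 26.1 in AT1 and 30.8, 22.4 and 29.5 in AT10. FCA and AT01 overlapped, and AT1 overlapped both neighbours. Ube2d2 had a slope of 0.34 ± 0.057 (SE), r = 0.87 with an exact permutation p = 0.000357 and rho = 0.89 with an exact p = 0.0004, and an adjusted p = 0.276. Rpf2 (MSTRG.10678), needed to assemble the large ribosomal subunit, was at 13.6, 17.6 and 16.9 FPKM in the FCA libraries, 16.97, 18.7 and 17.5 in AT01, 17.4, 20.5 and 18.96 in AT1 and 22.8, 20.6 and 21.6 in AT10. Its AT10 libraries were above all others. Rpf2 had a slope of 0.13 ± 0.029 (SE), r = 0.83 with an exact permutation p = 0.00039 and rho = 0.84 with an exact p = 0.00135, and an adjusted p = 0.276.

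Falling records were led by Myl9 (MSTRG.11883), the regulatory light chain of the non-muscle and smooth muscle myosin II motor. Myl9 was at 60.7, 61.6 and 59.4 FPKM in the FCA libraries, 56.4, 57.1 and 52.1 in AT01, 54.8, 49.1 and 49.2 in AT1 and 48.8, 47.00 and 43.2 in AT10. Every FCA library exceeded all TCDCA libraries, and every AT10 library was below the other 9, with AT01 and AT1 overlapping between them. Its trend had a slope of -0.13 ± 0.021 (SE), r = -0.92 with an exact permutation p = 5.41e-05 and rho = -0.95 with an exact p = 2.16e-05, and an adjusted p = 0.209. Gse1 (MSTRG.8814) was at 2.01, 1.78 and 1.97 FPKM in the FCA libraries, 1.67, 1.71 and 1.64 in AT01, 1.52, 1.58 and 1.73 in AT1 and 1.32, 1.52 and 1.52 in AT10. The FCA libraries were above all others. Gse1 had a slope of -0.079 ± 0.023 (SE), r = -0.87 with an exact permutation p = 0.00013 and rho = -0.89 with an exact p = 0.000357, and an adjusted p = 0.276.

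A step between 0.1 and 1 µM was seen in Artn, Prkcsh and Aktip, in each of which all AT1 and AT10 libraries were below all FCA and AT01 libraries. Artn (MSTRG.13965), a ligand of the GDNF family, was at 2.15, 1.38 and 1.55 FPKM in the FCA libraries, 1.53, 1.33 and 1.36 in AT01, 0.99, 0.90 and 0.95 in AT1 and 1.06, 0.79 and 0.74 in AT10. Artn had a slope of -0.19 ± 0.037 (SE), r = -0.88 with an exact permutation p = 0.000173 and rho = -0.89 with an exact p = 0.0004, and an adjusted p = 0.276. Prkcsh (MSTRG.16728), the beta subunit of the glucosidase that trims glycoproteins in the endoplasmic reticulum (ER), was at 109.8, 109 and 103 FPKM in the FCA libraries, 107, 100.3 and 105 in AT01, 97.9, 99.1 and 97.8 in AT1 and 98.4, 95.8 and 92.3 in AT10. Prkcsh had a slope of -0.059 ± 0.016 (SE), r = -0.89 with an exact permutation p = 0.000211 and rho = -0.89 with an exact p = 0.0004, and an adjusted p = 0.276. Aktip (MSTRG.8450) was at 11.8, 10.4 and 10.98 FPKM in the FCA libraries, 10.7, 10.3 and 10.6 in AT01, 9.98, 9.90 and 9.63 in AT1 and 9.79, 9.84 and 9.53 in AT10. Aktip had a slope of -0.059 ± 0.018 (SE), r = -0.84 with an exact permutation p = 0.000287 and rho = -0.89 with an exact p = 0.0004, and an adjusted p = 0.276.

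The ephrin Efna4, the kinase Stk38 and the Golgi protein Yipf1 completed the falling records of smallest p. Efna4 (MSTRG.9674) was at 2.26, 2.19 and 2.70 FPKM in the FCA libraries, 1.88, 2.0 and 1.92 in AT01, 1.78, 1.83 and 1.46 in AT1 and 1.64, 1.41 and 1.77 in AT10. FCA was above all others, and AT01 above all AT1 and AT10 libraries. Efna4 had a slope of -0.13 ± 0.029 (SE), r = -0.85 with an exact permutation p = 0.000292 and rho = -0.93 with an exact p = 7.03e-05, and an adjusted p = 0.276. Stk38 (MSTRG.10365) was at 8.77, 8.75 and 9.37 FPKM in the FCA libraries, 8.30, 8.28 and 8.04 in AT01, 7.94, 8.52 and 7.43 in AT1 and 7.76, 4.86 and 3.96 in AT10. AT10 replicate 1 was close to AT1, and the other two AT10 libraries were far below. Stk38 had a slope of -0.20 ± 0.056 (SE), r = -0.73 with an exact permutation p = 0.00033 and rho = -0.89 with an exact p = 0.0004, and an adjusted p = 0.276. Yipf1 (MSTRG.13854) was at 21.6, 20.6 and 20.9 FPKM in the FCA libraries, 22.3, 21.4 and 21.4 in AT01, 19.4, 19.8 and 19.3 in AT1 and 17.01, 18.1 and 16.8 in AT10. AT01 overlapped FCA, and AT10 was below AT1, which was below both. Yipf1 had a slope of -0.095 ± 0.022 (SE), r = -0.86 with an exact permutation p = 0.0004 and rho = -0.82 with an exact p = 0.00223, and an adjusted p = 0.276.

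**Figure D2:**
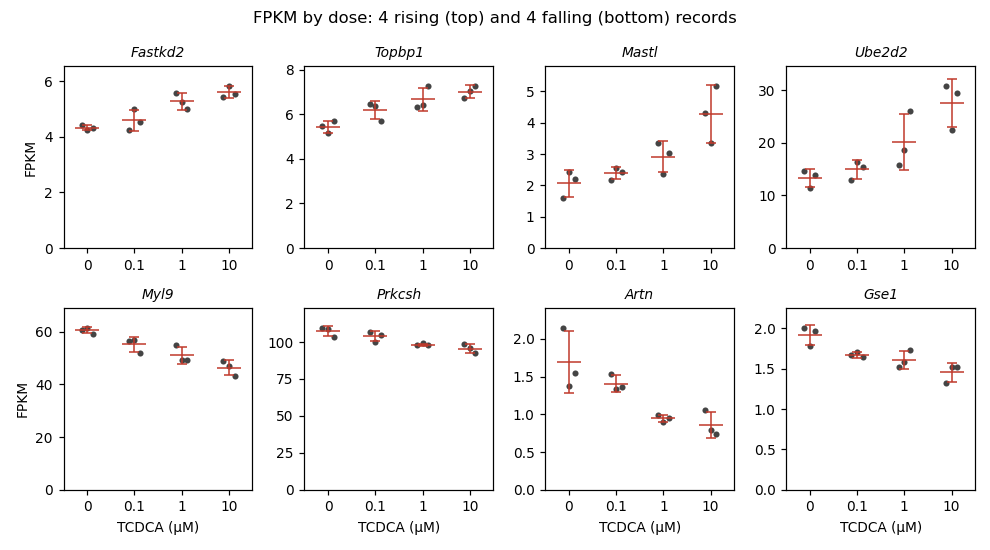
FPKM (vertical axes, each from 0) of rising and falling genes in the 4 groups in dose order (horizontal axes), 1 point per library, with the mean and SD of the 3 libraries in red. In Myl9 the mean moves down at each step, from 60.6 ± 1.15 FPKM (SD, n = 3) in FCA to 46.3 ± 2.86 in AT10, and in Ube2d2 it moves up at each step, from 13.3 ± 1.64 to 27.6 ± 4.53 FPKM.

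These 16 genes were picked for the smallest p in these same libraries, so leaving libraries out adds no separate evidence for them. Each kept an unadjusted exact p under 0.05 when any 1 of the 12 libraries was left out, with a largest p of 0.00951, for Stk38 without FCA replicate 3. With 1 FCA and 1 AT10 library left out together, in all 9 combinations, r ranged from 0.81 to 0.89 for Cnbd2, 0.93 to 0.95 for Primpol, 0.87 to 0.91 for Fastkd2, -0.92 to -0.89 for Myl9 and -0.82 to -0.63 for Stk38.

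Several of the largest slopes belonged to records that were high or near 0 in only some libraries. A record was taken as having 2 levels if its libraries, put in order of log2(FPKM + 1), left a gap of 1 or more that was wider than the spread above it and below it, with no fewer than 2 libraries on either side. Of the records tested, 525 were of this kind (4.52%), among them 9 of the rising (1.19%) and 21 of the falling records (3.8%). Such records were thus not more frequent among the calls. The falling ones include Spry4, Mmp24 and Taf7. Spry4, an inhibitor of growth factor signalling, was at 8.74, 8.80 and 8.51 FPKM in the FCA libraries, 8.29, 8.63 and 0.34 in AT01, 0.31, 8.70 and 7.98 in AT1 and 0.40, 0.26 and 0.23 in AT10. It was low in all AT10 libraries, in 1 AT01 and in 1 AT1 library, and its slope was -0.87 ± 0.27 (SE) with exact permutation p = 0.0109 and adjusted p = 0.365. Mmp24, a membrane-bound matrix metalloproteinase, was at 13.2, 14.7 and 11.4 FPKM in the FCA libraries, 0.72, 12.9 and 1.11 in AT01, 7.86, 10.7 and 11.9 in AT1 and 0.98, 1.08 and 0.25 in AT10, with a slope of -0.75 (exact permutation p = 0.0438), which became p = 0.108 without AT10 replicate 3. Taf7, a subunit of the general transcription factor TFIID, was at 3.52, 2.51 and 3.36 FPKM in the FCA libraries, 2.44, 4.0 and 0 in AT01, 0, 2.36 and 0.03 in AT1 and 0.05, 0 and 0.07 in AT10, with a slope of -0.67 (exact permutation p = 0.00843).

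F2r, the thrombin receptor, also had its values at 2 levels, at 1.82, 3.29 and 8.99 FPKM in the FCA libraries, 2.80, 5.61 and 4.55 in AT01, 91.96, 13.2 and 9.84 in AT1 and 9.79, 89.05 and 7.03 in AT10. The 2 high libraries were 1 of AT1 and 1 of AT10, and the exact permutation p of the slope, 0.0381, became 0.126 without AT10 replicate 2. Sema3d, a secreted semaphorin, was at 1.67, 3.86 and 1.82 FPKM in the FCA libraries, 0.78, 2.13 and 9.49 in AT01, 3.73, 2.23 and 6.59 in AT1 and 7.66, 9.98 and 10.2 in AT10, with a slope of 0.52 (exact permutation p = 0.0239, and 0.0581 without AT10 replicate 3). A second Sema3d record had a slope of 0.065 and an exact permutation p = 0.595. Tmem132b was listed at 0 in all FCA libraries and at 0.50, 3.63 and 3.22 FPKM in AT10, with an exact p = 0.0406 that became 0.107 without AT10 replicate 2. Of the other 2-level records, Rpl6-ps1 (1.78, exact permutation p = 0.0229), Rpl31l4 (-1.67, exact permutation p = 0.0424, and 0.127 without FCA replicate 2) and a record of Cycs (-0.97, exact permutation p = 0.0053) share sequence with near-identical copies, and their values are uncertain because reads can be split between the copies.

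Collagens and contractile genes had mostly negative slopes. Of 17 fibrillar, basement membrane and other collagen genes tested, 4 fell and none rose. Of their slopes 16 were below 0, and the median slope was -0.078 per step. Of all 10633 gene names tested, 527 fell (4.96%), 698 rose (6.56%) and the median was -0.0028. Slopes above 0 were held by 5116 of all names (48.1%). Counts of members and of slope signs in the lists below are to be read beside these shares, and a count near them is no result about its list. Col18a1, the basement membrane collagen that yields endostatin, was at 24.1, 25.2 and 24.1 FPKM in the FCA libraries, 23.1, 21.2 and 20.8 in AT01, 22.9, 22.4 and 22.02 in AT1 and 21.5, 20.6 and 17.8 in AT10. The FCA libraries were above all others, and AT01 and AT1 overlapped. Its slope was -0.081 ± 0.026 (SE), r = -0.74 with an exact permutation p = 0.00372 and rho = -0.76 with an exact p = 0.00719, and adjusted p = 0.337. Col16a1 had a slope of -0.091 (exact permutation p = 0.00634), Col6a1 of -0.097 (exact permutation p = 0.0223, and 0.0782 without AT10 replicate 3) and Col4a2 of -0.087 (exact permutation p = 0.0299, and 0.112 without AT10 replicate 3). The major fibrillar chain Col1a1, at 900.2 to 1072 FPKM in FCA, 721 to 904 in AT01, 817 to 853 in AT1 and 571 to 979 in AT10, had a slope of -0.079 (exact permutation p = 0.208), and Col3a1, at 876 to 998 FPKM in FCA, 741 to 845 in AT01, 905 to 915 in AT1 and 683 to 891 in AT10, a slope of -0.051 (exact permutation p = 0.208).

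Their levels did not descend step by step. Averaged over the 17 collagens as log2 difference from each gene's mean, the FCA libraries lay between 0.066 and 0.17, AT01 between -0.091 and -0.035, AT1 between 0.060 and 0.087, and AT10 between -0.33 and 0.0085. AT1 was thus above AT01 in every library. Over the 3 TCDCA doses alone the median slope was -0.017. Without AT10 replicate 3, the library at -0.33, the median slope was -0.048 and 2 collagens fell, and without AT10 replicate 1 it was -0.093 and 7 fell. In 6 of the 17 (35.3%) the departure from a straight line had an unadjusted limma p under 0.05, beside 6.86% of all names.

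**Figure D3:**
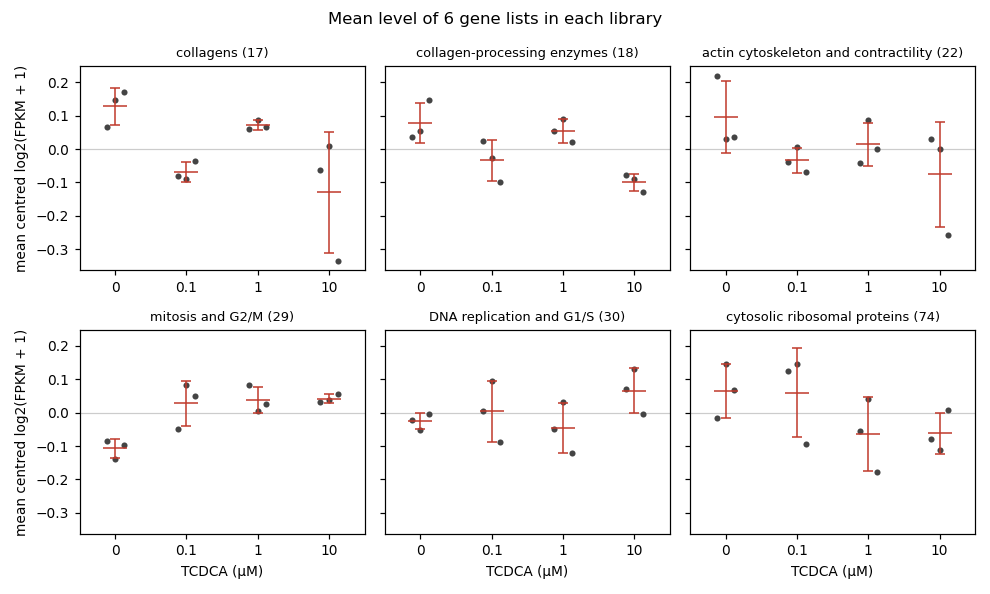
Mean over the tested members of a gene list of the log2 difference from each member's own mean (vertical axes), by library in dose order (horizontal axes), with the group mean and SD in red. The collagens zigzag with AT1 above AT01, while the mitosis genes separate the 3 FCA libraries, at -0.14 to -0.084, from the 9 TCDCA libraries, at -0.049 to 0.082.

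Enzymes that modify and fold collagen also had mostly negative slopes. Of 18 tested, 3 fell and none rose, 17 had a slope below 0 and the median was -0.042. With 1 library left out, 1 (without FCA replicate 2) to 6 (without AT01 replicate 3 or AT10 replicate 1) fell, and the median lay between -0.048 and -0.024, the latter without AT10 replicate 3. P3h1, which hydroxylates proline in collagen, was at 62.5, 69.2 and 66.7 FPKM in the FCA libraries, 63.1, 57.03 and 43.8 in AT01, 42.1, 57.7 and 59.9 in AT1 and 43.9, 41.3 and 51.2 in AT10. FCA replicate 1 was below 1 AT01 library, and AT10 was below all of FCA. P3h1 had a slope of -0.16 ± 0.048 (SE), with exact permutation p = 0.0121 and adjusted p = 0.365. Serpinh1, the collagen chaperone HSP47, had a slope of -0.043 (exact permutation p = 0.0239, and 0.0837 without FCA replicate 2), and the lysyl hydroxylase Plod1 a slope of -0.079 (exact permutation p = 0.0339, and 0.102 without FCA replicate 2). The averaged level of this list was lower in the AT10 libraries, at -0.13 to -0.079, than in all others except AT01 replicate 3, which was at -0.098.

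Of 22 actin and contractility genes tested, 4 fell and none rose: Myl9, Tpm1, Acta2 and Cnn2. The median slope was -0.048, and 19 slopes were below 0. Acta2, the smooth muscle actin that marks myofibroblasts, was at 370.1, 317 and 263 FPKM in the FCA libraries, 185, 247 and 239 in AT01, 246, 224 and 216 in AT1 and 256, 247 and 125 in AT10. All FCA libraries were above all TCDCA libraries, AT01, AT1 and AT10 overlapped, and AT10 replicate 3 was the lowest. Acta2 had a slope of -0.19 ± 0.079 (SE) with exact permutation p = 0.0395, and 0.156 without AT10 replicate 3. Its adjusted exact permutation p was 0.414. Tpm1, a tropomyosin, had a slope of -0.048 (exact permutation p = 0.0311, and 0.128 without AT10 replicate 3), and Cnn2, a calponin, a slope of -0.068 (exact permutation p = 0.0493, and 0.147 without FCA replicate 1). When 1 library was left out, between 1 (without FCA replicate 1 or AT10 replicate 3) and 5 (without AT10 replicate 2) fell. The summed level of 5 smooth muscle and myofibroblast markers, of which Acta2 holds the most, was 307 to 411 FPKM in FCA, 224 to 288 in AT01, 252 to 291 in AT1 and 159.5 to 304 in AT10. The other tested markers of that kind, Des, Myh11 and Cnn1, had exact p-values of 0.523, 0.565 and 0.655, and the part of such cells in the result was not tested.

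Of 10 FLS markers tested, 2 rose (20%) and 1 fell (10%), beside 6.56% and 4.96% of all names. Thy1, a surface protein of sublining fibroblasts, fell, at 154, 158 and 152 FPKM in the FCA libraries, 144, 142 and 146 in AT01, 135, 129.5 and 112 in AT1 and 142, 129 and 114 in AT10. FCA was above AT01, and AT01 above all AT1 and AT10 libraries, which overlapped. Thy1 had a slope of -0.10 ± 0.029 (SE), r = -0.75 with an exact permutation p = 0.00463 and rho = -0.86 with an exact p = 0.000779, and adjusted p = 0.35. Vcam1, an adhesion molecule, was at 2.55 to 3.64 FPKM in FCA, 4.48 to 4.85 in AT01, 4.24 to 5.70 in AT1 and 4.01 to 4.87 in AT10. All FCA libraries were below all TCDCA libraries, which overlapped. Its slope of 0.14 (exact permutation p = 0.0341) became p = 0.121 without FCA replicate 2. Fap, the fibroblast activation protease, also had all FCA libraries below all others, with a slope of 0.087 (exact permutation p = 0.0477, and 0.143 without FCA replicate 2). Over the 3 TCDCA doses alone the slopes of Vcam1 and Fap were -0.032 and -0.0038. Lubricin (Prg4), Pdpn, Cdh11, Vim and Cd55 did not pass the test, with exact p-values between 0.0657 and 0.938, although a second, lower record of Cd55 had an exact p = 0.0323 with a slope above 0.

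In the TGF-beta pathway, which drives matrix production, 2 of 20 genes rose (10%) and none fell, beside 6.56% and 4.96% of all names. Of the 20 slopes 15 were below 0, and the median was -0.042. The 2 that rose were Skil, a repressor of SMAD signalling, with a slope of 0.12 (exact permutation p = 0.00933), and the type I receptor Tgfbr1, with 0.097 (exact permutation p = 0.0327, and 0.0942 without FCA replicate 2). The ligand Tgfb2 was at 3.56 to 4.21 FPKM in FCA, 2.51 to 4.04 in AT01, 2.70 to 3.88 in AT1 and 2.55 to 2.90 in AT10, with an exact permutation p = 0.0509.

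Mitosis genes gave the largest share of rising members among the lists. Of 29 tested, 10 rose (34.5%) and none fell, 22 slopes were above 0, and the median slope was 0.029. The 10 were Ect2, Kif11, Mki67, Bub1, Hmmr, Cenpf, Ttk, Cenpe, Top2a and Ccna2. Ect2, which is needed for cytokinesis, was at 4.96, 4.46 and 5.58 FPKM in the FCA libraries, 5.12, 5.98 and 6.53 in AT01, 6.93, 6.23 and 6.01 in AT1 and 6.83, 7.37 and 6.52 in AT10. FCA overlapped AT01 alone, and all AT10 libraries were above all FCA libraries. Ect2 had a slope of 0.13 ± 0.030 (SE), r = 0.83 with an exact permutation p = 0.000974 and rho = 0.82 with an exact p = 0.00223, and adjusted p = 0.326. Mki67, the proliferation marker Ki-67, was at 6.74, 5.84 and 8.11 FPKM in the FCA libraries, 8.64, 10.1 and 7.85 in AT01, 9.77, 9.55 and 10.1 in AT1 and 8.81, 10.5 and 9.94 in AT10. Only AT01 replicate 3 fell within the range of FCA, and the doses overlapped one another. Mki67 had a slope of 0.15 ± 0.040 (SE) and exact permutation p = 0.00367.

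Top2a, the topoisomerase that untangles chromosomes, was at 14.2, 12.2 and 14.6 FPKM in the FCA libraries, 14.1, 17.8 and 17.2 in AT01, 17.7, 17.1 and 16.8 in AT1 and 16.1, 18.4 and 15.98 in AT10. The lowest AT01 library was below 2 of the FCA libraries, and the other 8 TCDCA libraries exceeded all of FCA. Top2a had a slope of 0.092 ± 0.034 (SE), with exact permutation p = 0.0223, and 0.0775 without FCA replicate 2. The calls of Cenpe (largest exact p 0.0552, without FCA replicate 2) and Ccna2 (0.0953, without FCA replicate 3) were also lost without 1 library, and those of the other 7 were kept. The mitotic motor Kif11 had a slope of 0.12 (exact permutation p = 0.00215), and the centromere protein Cenpf of 0.23 (exact permutation p = 0.00767). The mitotic cyclin Ccnb1 (0.0028, exact permutation p = 0.936) and its kinase Cdk1 (0.047, exact permutation p = 0.143) did not pass. The averaged level of the list separated all FCA libraries from all TCDCA libraries, but over the 3 doses alone its median slope was 0.0046, and 2 of the 29 rose when the dose in µM replaced the rank. Between 7 (without FCA replicate 2) and 10 rose when 1 library was left out.

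The upstream sequences of 3 of these genes are shown because mitosis genes are known to share 2 short elements, the cell cycle homology region (CHR, TTTGAA) and the CCAAT box. The 250 bases before the gene start in RefSeq (build GRCr8) are printed 5′ to 3′ on the strand of the gene, with TTTGAA and CCAAT, on either strand, in capitals.
Mki67, chr1:199952594-199952843, reverse strand: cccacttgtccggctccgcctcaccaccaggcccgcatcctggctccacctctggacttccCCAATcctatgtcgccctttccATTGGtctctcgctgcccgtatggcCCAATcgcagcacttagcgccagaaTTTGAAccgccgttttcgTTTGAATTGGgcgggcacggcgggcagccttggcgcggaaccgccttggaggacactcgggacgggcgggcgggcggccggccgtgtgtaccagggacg
Top2a, chr10:84473094-84473343, reverse strand: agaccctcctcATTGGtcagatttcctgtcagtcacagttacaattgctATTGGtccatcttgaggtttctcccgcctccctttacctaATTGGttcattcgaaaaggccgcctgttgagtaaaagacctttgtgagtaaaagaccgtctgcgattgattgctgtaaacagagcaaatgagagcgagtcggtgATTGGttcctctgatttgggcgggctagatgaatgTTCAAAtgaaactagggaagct
Ect2, chr2:111966627-111966876, reverse strand: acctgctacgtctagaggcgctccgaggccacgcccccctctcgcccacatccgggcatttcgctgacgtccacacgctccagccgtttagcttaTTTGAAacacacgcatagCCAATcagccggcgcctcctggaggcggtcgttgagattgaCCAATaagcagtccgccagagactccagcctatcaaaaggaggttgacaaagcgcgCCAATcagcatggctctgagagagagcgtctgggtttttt
Mki67 held TTTGAA starting at 117 and 99 bases before the start and CCAAT at 189, 167, 142 and 94 bases, the last of which overlaps the CHR by 1 base. Top2a held CCAAT at 239, 201, 161 and 57 bases and TTTGAA at 22 bases, and Ect2 held TTTGAA at 155 bases and CCAAT at 137, 96 and 40 bases. Of the 29 mitosis genes, 25 matched a RefSeq promoter, of which 11 (44.0%) held TTTGAA and 21 (84.0%) held CCAAT, where 16.2% and 34.0% of all 33469 promoters of that length did. At least 4 CCAAT, as in Mki67 and Top2a, stood in 0.565% of all promoters, and both elements together in 5.87%. The E2F sites TTTCGCGC and TTTGGCGC were in 1 of the 25 (4.0%, against 0.636%). The TTTGAA element did not go with the rising call. Among the rising genes, Ect2, Mki67, Top2a and Hmmr held it, while Kif11, Cenpf, Ttk and Cenpe held CCAAT without it. Cdk1, Cdc20, Cdc25c, Kif23, Cenpa, Birc5 and Prc1 held TTTGAA and did not rise. A match describes the letters in this window and says nothing of binding.

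Replication genes had a smaller share of rising members. Of 30 genes of DNA replication and the G1/S transition, 6 rose and none fell, 22 slopes were above 0, and the median was 0.020. Pcna, the sliding clamp of DNA polymerase, was at 33.4, 33.00 and 34.3 FPKM in the FCA libraries, 38.3, 39.6 and 30.96 in AT01, 36.4, 41.7 and 37.7 in AT1 and 39.03, 42.95 and 42.3 in AT10. AT10 was above all FCA libraries, and AT01 replicate 3 was the lowest of all 12. Pcna had a slope of 0.098 ± 0.028 (SE), exact permutation p = 0.00501 and adjusted p = 0.35. The cyclin D partner Cdk6 had a slope of 0.087 (exact permutation p = 0.00175), Ccnd2 of 0.050 (exact permutation p = 0.0234, and 0.0757 without FCA replicate 2), thymidine kinase Tk1 of 0.31 (exact permutation p = 0.0371, and 0.124 without AT10 replicate 2), the polymerase subunit Pola1 of 0.11 (exact permutation p = 0.0428, and 0.144 without FCA replicate 1), and the helicase subunit Gins1 of 0.13 (exact permutation p = 0.0473, and 0.168 without AT10 replicate 3). The number of rising members ranged from 2 to 6 when 1 library was left out.

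Cytosolic ribosomal protein and respiratory chain genes had mostly negative slopes. Of 74 cytosolic ribosomal protein genes tested, 7 fell (9.46%) and none rose, 52 slopes were below 0, and the median was -0.033. Rps18, of the small subunit, was at 197, 208 and 192 FPKM in the FCA libraries, 206, 199.8 and 170.0 in AT01, 189.7, 201 and 161 in AT1 and 159, 157 and 194 in AT10, with a slope of -0.077 ± 0.033 (SE), exact permutation p = 0.0465, and 0.126 without AT10 replicate 2, with an adjusted p = 0.435. AT10 replicates 1 and 2 were the lowest of the 12 libraries, and AT10 replicate 3 lay within the range of FCA. Rpl36 (-0.11, exact permutation p = 0.024, and 0.0678 without AT10 replicate 2) and Rps16 (-0.071, exact permutation p = 0.0487, and 0.163 without FCA replicate 2) were among the others. None of the 74 fell without FCA replicate 2, and 13 fell without AT10 replicate 3. Ribosomal protein genes have many processed copies in the genome, so that their values are uncertain.

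Of 34 subunits of complex I, the NADH dehydrogenase of the respiratory chain, 3 fell (8.82%, beside 4.96% of all names) and none rose. Their slopes were below 0 in 25 cases, with a median of -0.030. With 1 library left out, the falling members numbered 0 (without AT10 replicate 2) to 5 (without AT01 replicate 3). Ndufs8 was at 55.3, 59.9 and 53.3 FPKM in the FCA libraries, 52.7, 53.7 and 46.03 in AT01, 53.02, 54.2 and 49.7 in AT1 and 49.7, 46.5 and 47.6 in AT10. The AT10 libraries were below all of FCA, and AT01 replicate 3 was the lowest. Ndufs8 had a slope of -0.063 ± 0.025 (SE), with exact permutation p = 0.0192, and 0.0669 without FCA replicate 2. Ndufa8 (-0.090, exact permutation p = 0.0405, and 0.164 without AT10 replicate 3) and Ndufb4 (-0.054, exact permutation p = 0.0435, and 0.16 without FCA replicate 1) also fell. Of 34 subunits of complexes III, IV and V, 3 fell, among them the cytochrome oxidase subunit Cox4i1 (-0.051, exact permutation p = 0.0145, and 0.0509 without FCA replicate 2), and 1, Cox8a, rose (0.26, exact permutation p = 0.0275, and 0.112 without AT10 replicate 3). Mitochondrial ribosomal proteins had 4 falling (5.71%, beside 4.96% of all names) and 0 rising of 70, with a median of -0.0094.

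The hnRNP proteins, which package nascent transcripts, had mostly positive slopes. Of 19 tested, 3 rose and none fell, 16 slopes were above 0, and the median was 0.033. With 1 library left out, 0 (without AT10 replicate 3) to 5 (without FCA replicate 3) rose, and the median lay between 0.017 and 0.062. Hnrnpa1, a splicing repressor, was at 132, 129.8 and 144 FPKM in the FCA libraries, 139, 149 and 125 in AT01, 156, 141 and 157 in AT1 and 147, 147 and 172 in AT10. AT10 was above all FCA libraries, and AT01 spanned them. Hnrnpa1 had a slope of 0.072 ± 0.027 (SE), exact permutation p = 0.0189 and adjusted p = 0.388, with p = 0.0679 without AT10 replicate 3. Hnrnpa3 had a slope of 0.10 (exact permutation p = 0.0201, and 0.0715 without FCA replicate 2), and a second Hnrnpa3 record one of -0.064 with an exact permutation p = 0.722. Hnrnph1 had a slope of 0.053 (exact permutation p = 0.0372, and 0.108 without FCA replicate 2). Of 10 SR splicing factors tested, Srsf7 alone rose (0.039, exact permutation p = 0.0433, and 0.13 without FCA replicate 2). This was 10% of the list, beside 6.56% of all names. Among 16 aminoacyl-tRNA synthetases, which charge transfer RNA, Iars (0.049, exact permutation p = 0.0095), Lars (0.073, exact permutation p = 0.0293, and 0.104 without FCA replicate 2) and Nars (0.050, exact permutation p = 0.0385, and 0.141 without AT10 replicate 3) rose and none fell. The rising share of that list was 18.8%, beside 6.56% of all names.

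**Figure D4:**
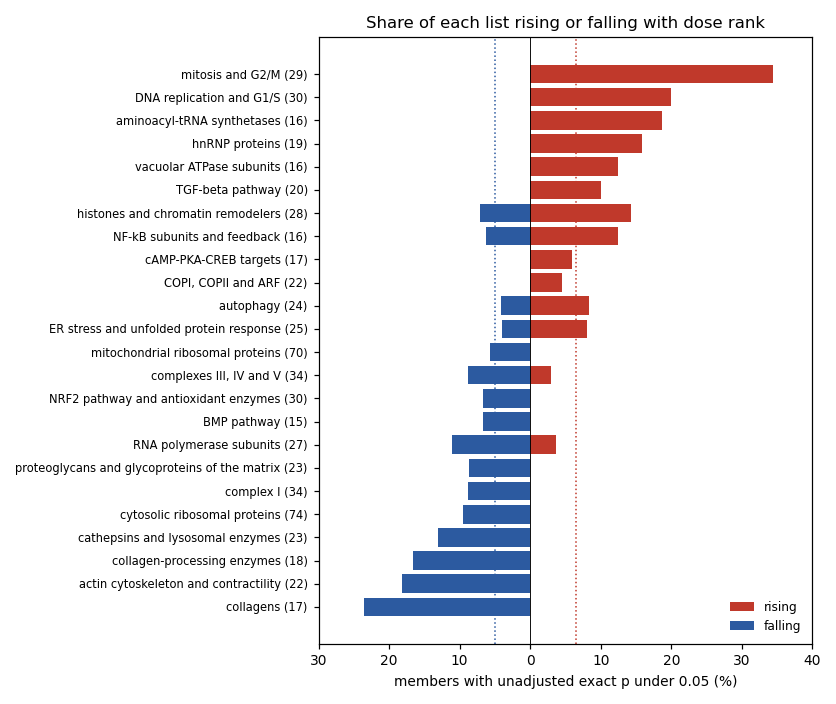
Share of the tested members of a gene list that rose (bars to the right) or fell (bars to the left) with dose at an unadjusted exact p under 0.05, in percent, for the 24 lists at the ends of the range of rising minus falling share among lists with at least 15 members tested. The dotted lines mark the shares of all gene names, 6.56% rising and 4.96% falling, and mitosis genes, at 34.5%, reach farthest to the right.

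Inflammatory mediators, which the study was concerned with, had no member whose slope passed the test in either direction. This held for all 10 cytokines, 12 chemokines and 13 genes of prostaglandin synthesis and its receptors tested. Over all names, 6.56% rose and 4.96% fell. By Spearman's rho, Ptges3 alone passed (rho = 0.65, exact p = 0.0292, adjusted p = 0.425). Ptges3 was at 65.9 to 85.6 FPKM in FCA, 31.2 to 104 in AT01, 45.7 to 98.6 in AT1 and 105 to 111 in AT10. Its slope had an exact permutation p = 0.177. The highest slope belonged to Ptgs2, the inducible cyclooxygenase COX-2, at 40.8, 16.6 and 32.9 FPKM in the FCA libraries, 35.1, 22.1 and 20.3 in AT01, 27.4, 22.5 and 24.4 in AT1 and 40.5, 66.2 and 97.96 in AT10. AT10 replicates 2 and 3 were above the other 10 libraries, and AT10 replicate 1 was within the range of FCA. Ptgs2 had a slope of 0.34 ± 0.15 (SE) and exact permutation p = 0.0584 over the 4 groups, and a slope of 0.66 with an exact p = 0.0238 over the 3 TCDCA doses, where the smallest possible p is 0.00119. Among the cytokines, Il6 was at 81.6, 108 and 128 FPKM in the FCA libraries, 148, 125 and 178 in AT01, 194, 109 and 174 in AT1 and 126, 147 and 205 in AT10. FCA overlapped each of the doses. Il6 had a slope of 0.18 ± 0.083 (SE) and exact permutation p = 0.0723. Il1a was at 1.01 to 2.90 FPKM in FCA, 1.17 to 2.18 in AT01, 1.31 to 2.48 in AT1 and 2.82 to 5.35 in AT10, with exact permutation p = 0.0596, and its slope over the 3 TCDCA doses was 0.42 with an exact p = 0.0238. Il1b was at 1.15 to 2.18 FPKM in FCA, 0.92 to 2.73 in AT01, 1.39 to 1.70 in AT1 and 0.72 to 2.30 in AT10, with exact permutation p = 0.884. The chemokine Ccl2 was at 1122 to 1630.0 FPKM in FCA, 1207 to 2000.2 in AT01, 1337 to 1705 in AT1 and 1565 to 2737 in AT10, with exact permutation p = 0.164. The median slopes of the cytokines (0.032) and the chemokines (0.057) changed sign without AT10 replicate 3, to -0.011 and -0.038.

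Of 25 genes of ER stress and the unfolded protein response, 2 rose and 1 fell, beside 6.56% and 4.96% of all names, and the median slope was 0.036. Without FCA replicate 1, or without AT10 replicate 3, none of them rose. Pdia3, a disulfide isomerase, was at 325, 331 and 306 FPKM in the FCA libraries, 271, 323 and 393 in AT01, 370.3, 300.5 and 383 in AT1 and 385, 402 and 381 in AT10. AT10 was above all FCA libraries, with AT01 on both sides of FCA. Pdia3 had a slope of 0.094 (exact permutation p = 0.0425, and 0.0977 without AT10 replicate 2). Trib3, a pseudokinase induced by ER stress, had a slope of 0.25 (exact permutation p = 0.0196, and 0.0605 without AT10 replicate 3). Calr, the lectin chaperone calreticulin, fell, with a slope of -0.040 (exact permutation p = 0.0266, and 0.0949 without FCA replicate 3).

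The receptors and their target genes gave few trends. Of the cAMP and CREB targets 5.88% rose, beside 6.56% of all names. Of the glucocorticoid receptor targets 5% fell, beside 4.96% of all names. Both shares were thus near those of all names. Apart from the trend, 5 of the 17 cAMP and CREB targets (29.4%) had an unadjusted limma p under 0.05 for a departure from a straight line. Over all names that share was 6.86%. The TGR5 gene Gpbar1 was listed at or below 0.06 FPKM in every library and was not tested. Of 17 targets of cAMP and CREB, only Rgs2, a brake on G protein signalling, rose, at 7.61 to 9.41 FPKM in FCA, 9.28 to 9.90 in AT01, 9.36 to 9.73 in AT1 and 8.81 to 10.8 in AT10, with a slope of 0.076 (exact permutation p = 0.0172, and 0.0624 without FCA replicate 1). Nr3c1 was at 7.15, 5.39 and 7.74 FPKM in the FCA libraries, 8.89, 9.48 and 8.74 in AT01, 9.09, 10.3 and 10.2 in AT1 and 6.53, 7.90 and 9.54 in AT10. AT01 and AT1 were above all of FCA, while AT10 overlapped the other groups. Nr3c1 had a slope of 0.075 ± 0.059 (SE) and exact permutation p = 0.263, and its second record one of -0.11 with an exact p = 0.574. Of 20 targets of the glucocorticoid receptor tested, Glul, glutamine synthetase, was the 1 that passed and it fell, at 170.1, 164 and 177 FPKM in the FCA libraries, 171, 159 and 157 in AT01, 157, 165 and 157 in AT1 and 156, 152 and 152 in AT10. The AT10 libraries were the lowest of the 12. Glul had a slope of -0.047 ± 0.017 (SE), r = -0.79 with an exact permutation p = 0.0025 and rho = -0.80 with an exact p = 0.00341, and adjusted p = 0.326. The list had a median of -0.039, with 16 slopes below 0. Cyp7b1, an oxysterol hydroxylase of bile acid synthesis, was the 1 of 7 bile acid genes tested that rose (0.14, exact permutation p = 0.0334, and 0.115 without AT10 replicate 2).

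Of genes that the study discusses, Gpx3, Srsf9, Cstb, Ctgf, Gapdh, LOC108351137 and Nr3c1 did not pass the test of the slope. The study compared groups in pairs, which is a different measure. It also reported higher SRSF9 and GPX3 at all doses by quantitative PCR and western blot. By quantitative PCR it found more CSTB, CTGF and GAPDH mRNA at some or all doses. Slc39a3 and LOC100363502 were added after their values were seen, and of these Slc39a3 passed. Slc39a3, a zinc transporter, was at 2.80, 3.06 and 2.47 FPKM in the FCA libraries, 9.24, 2.75 and 7.91 in AT01, 10.1, 10.1 and 9.94 in AT1 and 10.1, 3.12 and 10.3 in AT10. Its values lay at 2 levels, the lower of which held all FCA libraries and 1 library each of AT01 and AT10. It had a slope of 0.39 ± 0.15 (SE), with exact permutation p = 0.0409, and 0.0942 without FCA replicate 3, and an adjusted p = 0.419. LOC100363502 had a slope of -0.27 with exact permutation p = 0.0629. The slope of Gpx3, the secreted glutathione peroxidase, was 0.13 ± 0.17 (SE) (exact permutation p = 0.504), that of the splicing factor Srsf9 0.18 ± 0.12 (SE) (exact permutation p = 0.174), and that of the cathepsin inhibitor Cstb 0.061 ± 0.12 (SE) (exact permutation p = 0.637). Gpx3 was at 118 to 211 FPKM in FCA, 305 to 378 in AT01, 127 to 363 in AT1 and 114 to 309 in AT10. All its AT01 libraries lay above all FCA libraries. Srsf9 was higher in the 3 AT1 libraries, at 30.2 to 35.5 FPKM, than in the other 9, of which AT10 replicate 2, at 29.4 FPKM, came nearest. Ctgf, the matricellular growth factor CCN2, was at 704, 756 and 624 FPKM in the FCA libraries, 549, 678 and 656 in AT01, 787, 649 and 681 in AT1 and 190.0, 717 and 142 in AT10. It lay at 2 levels, of which the lower held AT10 replicates 1 and 3, and its slope was -0.39 ± 0.17 (SE) with exact permutation p = 0.0615. Gapdh had a slope of 0.0098 ± 0.031 (SE) (exact permutation p = 0.752). LOC108351137, which the deposited annotation gives the same enzyme activity, was listed at 0 in all AT01 and AT10 libraries. In all FCA and AT1 libraries it was between 1155 and 1285 FPKM, so its groups were not in dose order (slope -2.06, exact permutation p = 0.0958). Ctgf and LOC108351137 each had 2 records, of which that of highest mean is given. Whether reads of LOC108351137 were split between records or copies of like sequence was not tested, so its values are uncertain.

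Some genes differed between groups without a trend. The quadratic and cubic terms of dose rank, tested together in limma, gave an adjusted p under 0.05 for 6 records (0.0517%) and an unadjusted p under 0.05 for 820 (7.06%). The 6 were LOC108351137, whose values are uncertain as stated above, Prorsd1, Egr1, AABR07063082.1, Gnpda1 and Nr4a1. Prorsd1 and Gnpda1, like LOC108351137, had their values at 2 levels. Prorsd1 was at 3.43, 3.35 and 3.76 FPKM in the FCA libraries, 4.47, 4.58 and 4.15 in AT01, 0.02, 0.09 and 0 in AT1 and 3.75, 3.29 and 4.53 in AT10, so that AT1 alone was low. Gnpda1, a glucosamine-6-phosphate deaminase, was at 26.3, 24.2 and 24.9 FPKM in the FCA libraries, 9.22, 7.78 and 8.30 in AT01, 8.28, 7.30 and 9.75 in AT1 and 6.98, 7.97 and 9.0 in AT10, with all TCDCA libraries below all FCA libraries, and its slope passed as well (-0.46, exact permutation p = 0.00247). The limma adjusted p of its departure was 0.0198, 0.0681 without FCA replicate 3, and 0.0626 with the replicate block. AABR07063082.1 was at 13.5, 13.5 and 15.6 FPKM in the FCA libraries, 44.03, 38.3 and 37.3 in AT01, 31.4, 26.5 and 21.7 in AT1 and 25.2, 25.5 and 22.9 in AT10, with all FCA libraries below all TCDCA libraries.

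Egr1 and Nr4a1 are immediate early genes, which respond to growth factors and cyclic AMP within minutes. Egr1 was at 40.1, 43.2 and 41.9 FPKM in the FCA libraries, 22.3, 28.2 and 23.4 in AT01, 24.3, 25.5 and 22.4 in AT1 and 46.7, 46.98 and 41.5 in AT10. All AT01 and AT1 libraries were below all FCA and AT10 libraries. The departure from a line had an unadjusted limma p = 1.17e-06 and an adjusted p = 0.00453, and the exact p of its slope was 0.798. Nr4a1, an orphan nuclear receptor, was at 93.4, 96.9 and 98.9 FPKM in the FCA libraries, 74.9, 71.9 and 66.9 in AT01, 68.7, 72.9 and 67.6 in AT1 and 99.6, 98.4 and 89.7 in AT10. Its groups split in the same way. The limma p of the departure was 1.23e-05, and the adjusted p was 0.0237. With 1 library left out the limma adjusted p of Egr1 stayed at or below 0.0181, while that of Nr4a1 reached 0.0855 (without AT10 replicate 1) and was under 0.05 in 7 of the 12 cases. With the replicate number as a block it was 0.00764 for Egr1 and 0.0965 for Nr4a1.

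This shape, with the low and middle dose under both the control and the high dose, was found in 42 of the records tested (0.362%), and the opposite shape in 49 (0.422%). Of 20 AP-1 and immediate early genes tested, 5 had it (Egr1, Myc, Ier2, Jun and Egr2), and 8 had an unadjusted departure p under 0.05 (40.0%, against 6.86% of all names), while none rose or fell with dose. Since the pattern was seen in these data before the list was described, the count is a description. High shares of unadjusted departures were not particular to this list. They were 35.3% in collagens, 33.3% in integrins, 29.4% in cAMP and CREB targets, and 25% each in MAPK feedback genes and aminoacyl-tRNA synthetases. The averaged level of the 20 genes was 0.13 to 0.28 in FCA and -0.22 to -0.021 in AT01. It was -0.22 to -0.051 in AT1 and -0.025 to 0.077 in AT10. The list as a whole was thus lower in AT10 than in FCA, and AT10 overlapped AT01. Jun was at 19.9, 22.8 and 22.7 FPKM in the FCA libraries, 18.1, 17.3 and 17.3 in AT01, 15.3, 18.8 and 18.6 in AT1 and 21.3, 21.7 and 22.6 in AT10, with a limma adjusted p = 0.432 for the departure. Myc, a growth regulator, was at 22.6, 26.2 and 24.3 FPKM in the FCA libraries, 20.6, 19.9 and 19.8 in AT01, 17.8, 19.9 and 16.8 in AT1 and 23.1, 24.9 and 26.4 in AT10, with a limma adjusted p = 0.206. Fos, the partner of Jun in AP-1, was at 8.74, 14.97 and 8.45 FPKM in the FCA libraries, 5.41, 6.28 and 6.27 in AT01, 4.54, 5.91 and 5.32 in AT1 and 8.63, 6.65 and 6.15 in AT10. AT10 replicates 2 and 3 were below all of the FCA libraries. Fos had a limma adjusted p = 0.54. Chosen after their values were seen, Btg2 (limma adjusted p = 0.155) and Phlda1 (limma adjusted p = 0.214) had the same shape.

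**Figure D5:**
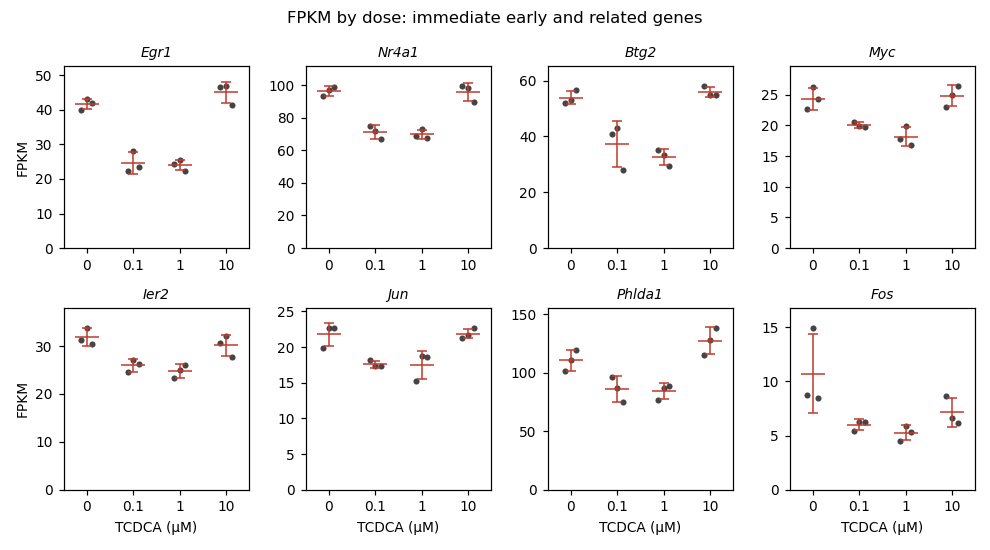
FPKM (vertical axes, each from 0) of immediate early genes in the 4 groups in dose order (horizontal axes), 1 point per library, with mean and SD in red. Egr1 and Nr4a1 show FCA and AT10 at like levels and AT01 and AT1 below both, with no overlap between those pairs of groups.

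The upstream sequence of Nr4a1 is shown because the gene is known to respond to cyclic AMP through cyclic AMP response elements (CRE). The 250 bases before its start in RefSeq (build GRCr8) are printed 5′ to 3′ with the CRE core TGACG, on either strand, in capitals.
Nr4a1, chr7:134259888-134260137, forward strand: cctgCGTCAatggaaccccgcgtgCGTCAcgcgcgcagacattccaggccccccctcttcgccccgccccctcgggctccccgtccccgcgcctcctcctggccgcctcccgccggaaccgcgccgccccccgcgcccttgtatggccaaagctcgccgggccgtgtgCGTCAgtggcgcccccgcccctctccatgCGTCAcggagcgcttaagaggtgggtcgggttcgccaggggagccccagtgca
The core TGACG starts at 246, 226, 82 and 53 bases before the gene start. At least 1 was in 18.2% of the 33469 promoters and 4 or more in 0.173%. Of the 20 AP-1 and immediate early genes, 14 matched a RefSeq promoter, of which 8 (57.1%) held TGACG. The CArG box, CC and GG around a run of A or T, was in 5 of the 14 (35.7%), against 1.5% of all promoters. Egr1 held both elements. A match describes the letters in this window and says nothing of binding, and a role of either element was not tested. Nr4a2, a relative of Nr4a1, was at 18.8 to 22.4 FPKM in FCA, 16.4 to 19.7 in AT01, 17.04 to 17.96 in AT1 and 22.5 to 26.2 in AT10, with a limma adjusted p = 0.454 for the departure.

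Further pathways had few members that passed, and what follows are unadjusted exact permutation p-values again. Over all names, 6.56% rose and 4.96% fell. In this and the following paragraphs, a count near those shares is no result about its pathway. Among 16 NF-kB subunits and feedback genes, 2 subunits of the IkB kinase complex rose, Ikbkg (0.12, exact permutation p = 0.0448, and 0.164 without FCA replicate 1) and Chuk (0.12, exact permutation p = 0.0469, and 0.13 without AT10 replicate 3), and the third, Ikbkb, fell (-0.12, exact permutation p = 0.0219, and 0.0508 without AT10 replicate 2). Matrix glycoproteins had 2 falling and 0 rising of 23, namely Sparc, a collagen-binding protein (-0.060, exact permutation p = 0.00483), and fibronectin, Fn1 (-0.070, exact permutation p = 0.0448, and 0.138 without AT10 replicate 3). Matrix proteases and their inhibitors had 1 of 18, the membrane protease Mmp16, which fell (-0.18, exact permutation p = 0.0131). Of 12 integrins, the collagen receptor subunit Itga11 fell (-0.15, exact permutation p = 0.0163, and 0.0628 without AT10 replicate 3) and the common subunit Itgb1 rose (0.066, exact permutation p = 0.0243, and 0.0677 without FCA replicate 2). Of 19 growth factors and receptors, Igf1r (-0.18, exact permutation p = 0.043, and 0.138 without AT10 replicate 3) and Pdgfa (-0.034, exact permutation p = 0.0443, and 0.171 without AT10 replicate 3) fell and Fgf7 rose (0.10, exact permutation p = 0.0384, and 0.102 without FCA replicate 2). In the BMP pathway Smad1 fell (-0.22, exact permutation p = 0.0259, and 0.089 without AT10 replicate 1), 1 of 15. Among 16 genes of MAPK feedback, Spred1 rose (0.17, exact permutation p = 0.0416, and 0.0906 without AT10 replicate 1) beside the fall of Spry4.

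Chromatin genes included 4 rising and 2 falling of 28, among them Suz12, a subunit of the Polycomb repressive complex that methylates histone H3, which rose (0.13, exact permutation p = 0.041, and 0.105 without AT10 replicate 3), and the histone methyltransferase Setd2, which also rose (0.11, exact permutation p = 0.0114). Of 20 cytosolic and related heat shock proteins, Hsp90aa1 (0.21, exact permutation p = 0.0257, and 0.06 without AT10 replicate 3) and Hspa9 (0.084, exact permutation p = 0.0355, and 0.117 without FCA replicate 2) rose, while Hspb1 (-0.18, exact permutation p = 0.0452, and 0.161 without FCA replicate 1) and Hspa2 (-0.078, exact permutation p = 0.0419, and 0.121 without AT10 replicate 3) fell. Of 30 antioxidant genes, Gstm1 (-0.14, exact permutation p = 0.000839) and the superoxide dismutase Sod1 (-0.059, exact permutation p = 0.0275, and 0.0656 without AT10 replicate 2) fell and none rose. Of 23 lysosomal genes, Scarb2, Psap (-0.049, exact permutation p = 0.0249, and 0.0833 without FCA replicate 2) and Ctsh (-0.036, exact permutation p = 0.0399, and 0.13 without AT10 replicate 2) fell and none rose, and of 24 autophagy genes Ulk2 and Rb1cc1 rose and Map1lc3b fell. Both liver X receptors, Nr1h3 (-0.064, exact permutation p = 0.021, and 0.0691 without AT10 replicate 3) and Nr1h2 (-0.040, exact permutation p = 0.041, and 0.114 without FCA replicate 1), fell among 12 genes of cholesterol efflux.

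The other lists had the following counts, again to be read beside the 6.56% of all names that rose and the 4.96% that fell. Translation factors had 5 rising and 4 falling of 59, zinc finger proteins 9 and 7 of 157, RNA polymerase subunits 1 and 3 of 27, Mediator subunits 1 and 0 of 27, proteasome subunits 1 and 0 of 31, and vacuolar ATPase subunits 2 and 0 of 16. Vesicle coat and ARF genes had 1 and 0 of 22, complement genes 0 and 2 of 11, citric acid cycle genes 2 and 2 of 19, sterol synthesis genes 1 and 2 of 23, fatty acid oxidation genes 0 and 1 of 18, and glycolysis and hypoxia genes 0 and 1 of 28. Apoptosis regulators had 1 and 1 of 19, p53 targets 0 and 1 of 18, and adipocyte markers 0 and 1 of 4. Interferon-stimulated genes (12 tested), the Wnt pathway (17), macrophage markers (2) and chondrocyte markers (3) had none in either direction, and none of the endothelial or T cell markers reached the level needed for a test.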

How the data were processed

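RNA-seq was measured in 12 libraries of rat FLS. According to the labels and the study's methods, the authors trimmed reads with cutadapt, aligned them with HISAT2 and assembled and quantified transcripts with StringTie. The deposited table gives FPKM per gene record, made by the authors, and no read counts, so the sequencing behind single values is unknown. The read totals per library in the study's methods were not used here. The genome build is not given in the sources used here. The labels and the study's methods name different sequencers.

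FPKM were taken to log2(FPKM + 1) for 11611 records, those averaging 1 FPKM or more. The slope on dose rank was tested two-sided by exact permutation over 369600 assignments. Its SE, and the F test of the quadratic and cubic terms, came from limma 3.58.1 with trended empirical Bayes (R 4.3.3). Adjusted p-values are Benjamini-Hochberg values over the 11611 records. Python 3.11.15, NumPy 2.4.6, SciPy 1.17.1, pandas 2.3.3 and Matplotlib 3.10.9 were used. Scripts were tested on simulated data. Where a name had several records, lists used the record of highest mean.

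The members and the 57 gene lists were chosen with earlier results of these data known. Named genes were the 8 rising and 8 falling records of smallest exact p, up to 5 rising and 5 falling of largest slope among those passing both the slope and the Spearman test, records passing adjustment (none), genes the study discusses, and up to 2 rising and 2 falling members of the lists with the 5 highest and 5 lowest median slopes and of 5 lists on receptors and inflammation. Other genes were named from the lists or the departure test after their values were seen. Alternatives were other filters, pseudocounts, scalings, dose codings, left-out libraries or groups, and a replicate block.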

Additional observations from a re-analysis of the deposited data

How the results depend on the processing

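With a mean of at least 10 FPKM required (4362 records), 229 rose, 264 fell, 10 departed from a line after adjustment, and 283 and 236 had strictly rising and falling means. With dose in µM 421 rose and 551 fell, and without the FCA group 343 rose. Without records at 2 levels, 3 departed from a line. Leaving out 1 library gave 448 (without AT10 replicate 3) to 929 rising, 416 to 708 falling and 7 to 19 departing records, and 460 rose without FCA replicate 2. Median-of-ratios scaling gave 697 rising and 618 falling records.

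The replicate block gave 847 rising and 558 falling records, 0 after adjustment, and 4 departing records, since Nr4a1 (limma adjusted p = 0.0965) and Gnpda1 (0.0626) no longer passed. Same-numbered libraries deviated together with r of -0.10 to 0.094 (0 of 18 pairs over 0.1), and 3 of 12 libraries correlated best with their own number, so the numbers were not taken to pair the samples.

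Some slopes that had not passed changed sign. Gpx3 was at -0.0071 with dose in µM, -0.31 without FCA, and between -0.018 and 0.30 (also -0.0048) without 1 library at each end. Srsf9 was at -0.00061 in µM, and Ctgf at 0.011 without AT10. Gapdh was at -0.00097 without FCA replicate 3, -0.015 without AT10, and between -0.0089 and 0.030 (also -0.00048 and -0.0072) without 1 library at each end. Nr3c1 was at -0.026 summed over its records, -0.0054 in µM and -0.086 without FCA. Of those that had passed, Vcam1 (-0.032) and Fap (-0.0038) changed sign without FCA. The cause was not tested.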

Other observations

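The Gene Ontology terms in the deposited annotation column gave other groups of genes, chosen here after their values were seen from 760 terms with at least 20 gene names tested, and described by counts at an unadjusted exact p under 0.05. Of 183 names annotated to chromatin binding, 21 rose and 3 fell with dose. Of 39 names annotated to the centromeric region of chromosomes, 7 rose and none fell. The 28 names with methylated histone binding included 6 that rose, Suz12, Fmr1, Chd1, Ncapg2, Mtf2 and Kdm7a, and none that fell. Microtubule-based movement had 5 rising of 25, the motor subunits Dync1i2, Kif5b, Kif11 and Kif15 and the kinesin-binding protein Ktn1. Response to UV had 5 rising of 30, namely Prkaa1, Rad18, Mapk8, Primpol and Trove2.

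Among terms with falling members, the stress fiber had 4 of 22, Tpm1, Myl12a, Cyba and Myl9, and none that rose. Serine-type endopeptidase activity had 5 of 31, the complement proteases C1r, Masp1 and Cfd, the tissue plasminogen activator Plat, and Ctsh, against 1 that rose. Negative regulation of MAP kinase activity had 4 falling of 24 and the clathrin-coated pit 4 of 27, with none rising in either. Over all names tested, 6.56% rose and 4.96% fell.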
